A study of Mus musculus with 6 samples.

Results

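The genes analysed here encode the cytosolic translation initiation factors, the elongation factors and the kinases and binding proteins that share their names. They were taken as every gene of the table whose name starts with Eif followed by a digit of 1 to 6, or with Eef followed by 1 or 2, without the 2 such names that mark pseudogenes, Eif4a-ps4 and Eif3s6-ps2. This gave 59 of 12125 genes. There were 5 genes of the Eif1 group, 13 of Eif2, 14 of Eif3, 15 of Eif4, 5 of Eif5 and Eif6, and 7 of the elongation factor (Eef) group. RNA was sequenced from single mouse morulae at embryonic day 2.5, to ask which genes depend on RBPJ, the DNA-binding protein through which Notch receptors regulate transcription. Of the 3 Rbpj-/- embryos, 2 came from litter 808 and 1 from litter 810, while the 3 controls were littermates from litter 808, 1 of them Rbpj+/- and 2 Rbpj+/+. The null allele was kept heterozygous on an outbred background, the embryos came from females that had not been superovulated, and each library is 1 whole embryo. The only embryo of litter 810 is a mutant, so its litter and its genotype cannot be told apart.

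Initiation starts when the GTPase eIF2 brings the initiator tRNA to the small ribosomal subunit, helped by eIF1, eIF1A, eIF5 and the large eIF3 complex. The eIF4 factors load this complex on the capped mRNA: eIF4E binds the cap, eIF4A unwinds RNA, and the long scaffold eIF4G holds both together and reaches eIF3. eIF5B helps the large subunit to join, after which eEF1 delivers aminoacyl-tRNAs and eEF2 moves the ribosome along. In the mouse morula these factors are made from the embryo's own genome, together with maternal protein that persists from the egg.

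The Rbpj-/- libraries held 2962425 and 4330126 reads (litter 808) and 10064016 reads (litter 810), against 12690030 to 14585313 in the controls, so the mutants of litter 808 had the least precise values. A normalised value here is the CPM of a gene (its reads relative to all reads), scaled by the authors between embryos, and 3 reads correspond to values of 0.201 to 1.09. Rbpj itself had 10.5, 24.3 and, in litter 810, 1.32 in the mutants, against 37.0 in the heterozygous control and 111 and 96.9 in the wildtype controls. Where 3 values are given for the mutants the last belongs to litter 810, and of 3 control values the one given before the others belongs to the heterozygote. The authors assigned genotypes from Rbpj and Neo expression, so these values are no independent check. All 8 listed preimplantation markers, such as Pou5f1, were present, none of the 7 cumulus genes was in the table, and 3 of 5 oviduct genes were present, with summed values of 13.5 to 130.2 in the mutants and 30.1 to 124 in the controls. The 5 of 6 blood genes in the table, mostly globins, varied most, with summed values of 209.8, 41.5 and 7305 in the mutants and 1109.8, 5.39 and 5447 in the controls, and their part in the results was not tested. Since each library is a whole embryo, fewer cells of a type and less RNA per cell cannot be told apart.

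In the comparison among littermates, which set the 2 Rbpj-/- embryos of litter 808 against the 3 controls, factor genes changed in both directions. The scaffold genes Eif4g1 and Eif4g2, the eIF3 subunit genes Eif3b and Eif3c, Eif2s3x, Eif4h, Eef2 and the kinase gene Eif2ak1 fell. The genes Eif3g, Eif3h, Eif3i, Eif3k and Eif3m of eIF3, Eif2s1 and Eif2s2 of eIF2, and Eif1b, Eif4ebp1, Eif6 and Eef1e1 rose. Thus 8 of 59 genes (13.6%) were lower and 11 (18.6%) were higher at an adjusted p below 0.05 by limma, against a background of 11.3% lower and 5.85% higher among the 12099 genes tested. The median log2 fold change was 0.42 over the 59 genes and -0.16 over all genes tested. All 19 genes kept their direction under each of the 16 other ways of processing tried, and Eif2s3x, Eif3b, Eif4g1 and Eif4g2 were called under every one. At an unadjusted p below 0.05, 13 genes were lower and 26 higher, against 20.1% and 12.1% of all genes. edgeR on the reads recovered from the values called 7 lower and 8 higher, against 7.88% and 4.75%, and DESeq2 called 10 and 27, against 14.2% and 10.5%. Below, a gene is called where limma called it, unless another tool is named. Later counts among littermates stand against the shares of all genes given here for the same tool. The limma counts rested on few embryos: they were 4 and 1 without the heterozygote, 5 and 1 or 4 and 0 without either wildtype embryo, and 6 and 6 without the shallowest mutant.

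Over all 6 embryos, with the litter 810 mutant included, limma called 0 of the 59 genes in either direction, where the background is 0.00%. The lowest adjusted p was 0.170. At an unadjusted p below 0.05, 7 genes were lower and 4 were higher, against 11.4% and 5.03% of all genes. edgeR on the recovered reads called 0 lower and 0 higher, where the background is again 0.00%. DESeq2 called 3 lower, Eif4g1, Eif4g2 and Eif4g3, against a background of 1.91%, and 2 higher, Eef1e1 and Eif3h, against 1.07%. Without the litter 810 mutant, limma called 9 lower and 11 higher. The medians were 0.24 for the 59 genes and -0.11 for all genes.

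The litter 810 mutant did not share all of the littermate differences. Of the 8 lower genes, 5 were below all controls in all 3 mutants (Eif2ak1, Eif2s3x, Eif3c, Eif4g1 and Eif4g2), and of the 11 higher genes, 5 were above (Eef1e1, Eif2s2, Eif3h, Eif3m and Eif4ebp1). These 19 genes were called on the litter 808 mutants and the same controls, so only the litter 810 mutant adds to the call. In 8 of the 19 the litter 810 embryo lay within the controls, and for Eif6 it lay on the other side of them. Counted over all 59 genes without regard to any test, 10 had all mutants below all controls and 8 had all mutants above, where 12.8% and 8.91% of all genes did so. In 15 genes both litter 808 mutants lay under every control and in 33 genes over every control, against 27.0% and 21.2% of all genes, and the litter 810 mutant did so in 21 and 16 genes, against 29.6% and 29.1%. Summed over the 59 genes, the values were 32978, 30929.5 and 25547 in the mutants and 28606, 26808 and 28383 in the controls, and the groups overlapped.

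**Figure D1:**
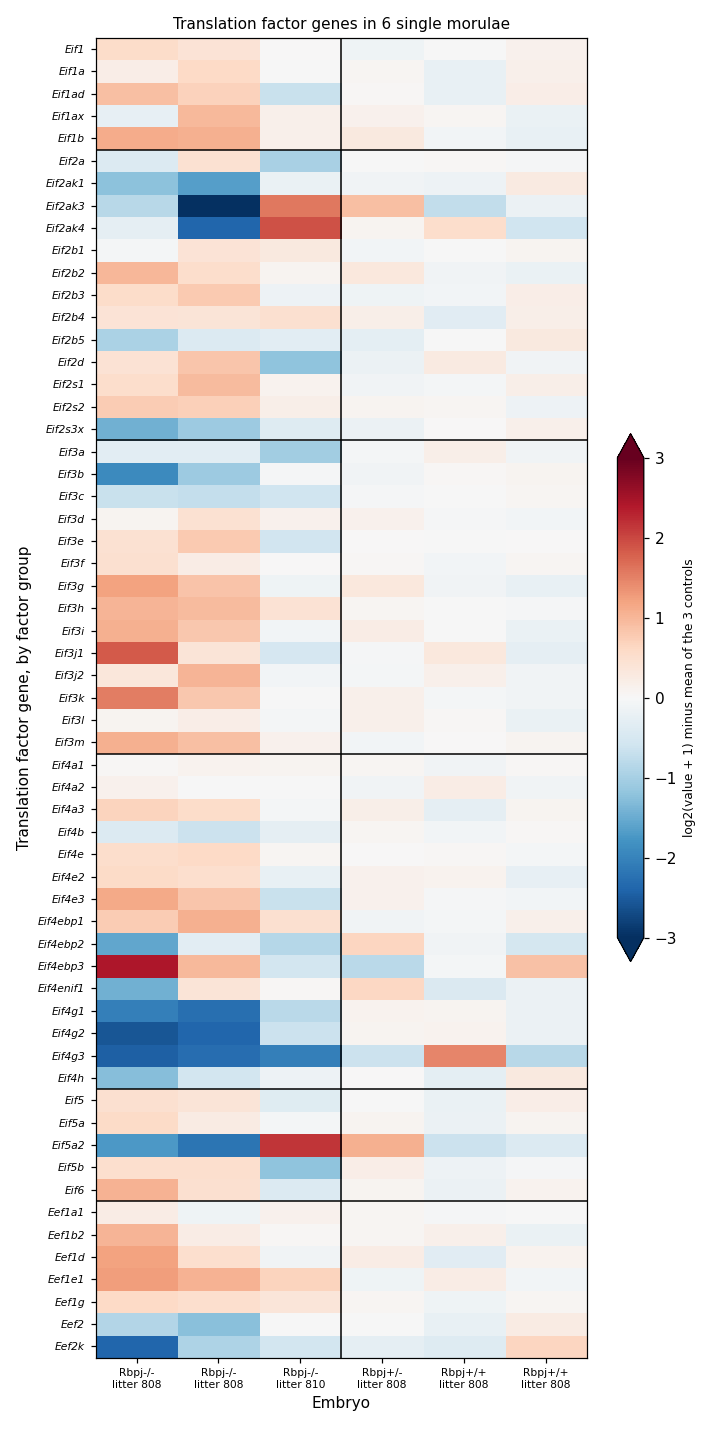
Each row is 1 of the 59 translation factor genes, each column 1 embryo, and colour gives log2(value + 1) minus the mean of the 3 controls, with lines between factor groups. The Eif4g1, Eif4g2 and Eif4g3 rows are blue in all 3 Rbpj-/- embryos, and most Eif3 rows are red in the 2 Rbpj-/- embryos of litter 808 and pale in that of litter 810.

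**Figure D2:**
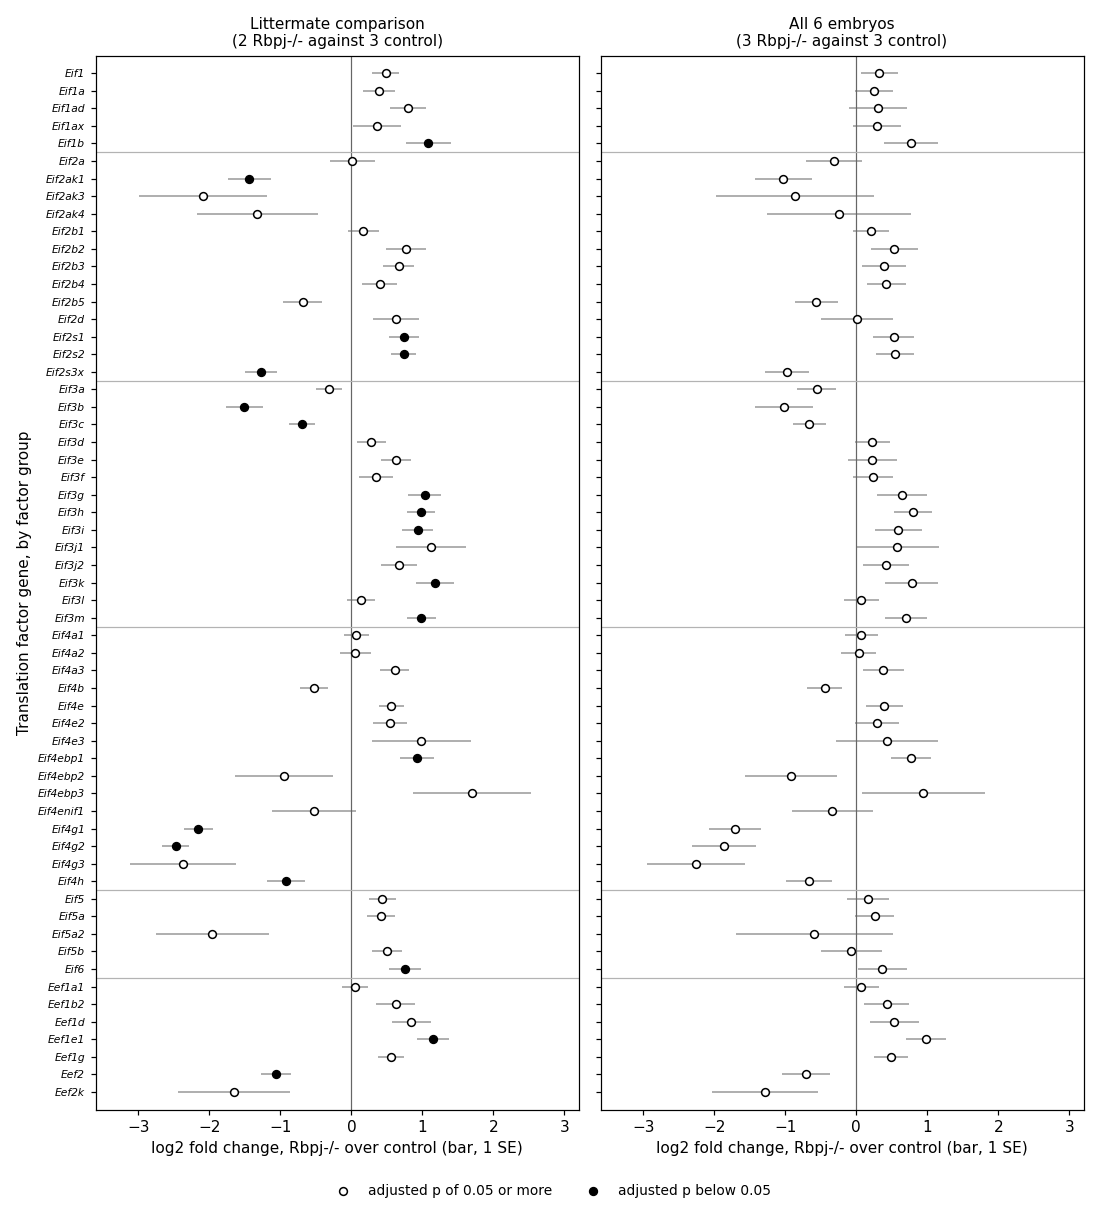
Points are log2 fold changes of Rbpj-/- over control embryos with 1 SE, on the left within litter 808 (2 against 3 embryos) and on the right over all 6 embryos, with genes sorted by factor group. Filled points passed an adjusted p below 0.05 by limma, 19 on the left and none on the right.

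By limma, the 3 members of the eIF4G family had the lowest fold changes of the 59 genes in both comparisons. edgeR and DESeq2 set some genes of few reads lower: Eif5a2 and Eef2k lay below Eif4g1 among littermates, as did Eif2ak3 by edgeR, and Eef2k lay below Eif4g1 and Eif4g2 over all 6 embryos. Eif4g1 (chr16:20668313-20692884, plus strand) encodes the main scaffold of the cap complex. Litter 808 mutants had values of 164 and 139.6 and the litter 810 mutant had 387, against 726 in the heterozygous control and 717 and 598 in the wildtype controls. All mutants were below all controls, with the litter 810 embryo between the groups. The littermate log2 fold change was -2.16 ± 0.21 (SE; limma adjusted p = 0.000731), and over all 6 embryos it was -1.71 ± 0.37 (adjusted p = 0.170).

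Eif4g2 (chr7:111067750-111083030, minus strand) encodes DAP5, an eIF4G relative that lacks the eIF4E-binding part and serves initiation without it. Values reached 281 and 317 in the litter 808 mutants and 1067 in the litter 810 mutant, against 1749.8, 1790.5 and 1465 in the controls. The groups did not overlap here either, and again the litter 810 embryo was nearest to the controls. Among littermates the log2 fold change was -2.47 ± 0.19 (limma adjusted p = 0.000506), and -1.86 ± 0.44 over all 6 embryos (adjusted p = 0.170).

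Eif4g3, the gene of another eIF4G scaffold, was low in every embryo but 1. It had 5.08, 5.90 and 7.06 in the mutants, against 20.4, 91.8 and 17.8 in the controls. Here all 3 mutants were alike and low, while 1 wildtype embryo stood far above the other controls. limma did not call it among littermates (adjusted p = 0.0565), while DESeq2 did (0.00364). DESeq2 over all 6 embryos gave an adjusted p of 0.0119 for Eif4g1, 0.0313 for Eif4g2 and 0.0121 for Eif4g3, and over the alternatives for all 6 embryos the adjusted p of these genes ran from 0.000502 to 0.543. Over those among littermates it was at most 0.0163 for Eif4g1, 0.0126 for Eif4g2 and 0.201 for Eif4g3.

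limma called neither of the genes for the main partners of eIF4G among littermates. Eif4a1, the gene of the helicase, had 1231, 1300.3 and 1283 in the mutants and 1268, 1115 and 1247 in the controls, with a littermate log2 fold change of 0.07 ± 0.18 (limma adjusted p = 0.831). Eif4e, the gene of the cap-binding protein, had 1582, 1653 and 1144 in the mutants and 1102, 1124 and 1055 in the controls, so all mutants were above, the litter 810 embryo by little. Its littermate log2 fold change of 0.56 ± 0.17 missed the threshold by limma (adjusted p = 0.0515) and passed it by DESeq2 (0.000169), within a range of 0.000169 to 0.559 over the alternatives. Its repressor gene Eif4ebp1, which encodes the 4E-BP that competes with eIF4G for eIF4E, rose.

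Eif4ebp1 had 207, 257 and 169 in the mutants, against 113, 116 and 136 in the controls. No mutant reached down to a control. This gave a littermate log2 fold change of 0.92 ± 0.24 (limma adjusted p = 0.0281, and 0.000453 to 0.186 over the alternatives). The related Eif4ebp2 had 3.99, 10.8 and 7.15 in the mutants and 22.1, 12.7 and 9.18 in the controls, and Eif4ebp3 was at most 8.35 in any embryo and at 0 in the heterozygote.

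Read as ratios within each embryo, which were chosen after the values were seen and were not tested, the scaffold was low relative to its partners. The ratio of Eif4g1 to Eif4e was 0.103, 0.0845 and 0.338 in the mutants and 0.659, 0.638 and 0.567 in the controls. The ratio of Eif4g1 to Eif4a1 was 0.133, 0.107 and 0.301 in the mutants and 0.573, 0.644 and 0.480 in the controls. For Eif4ebp1 over Eif4e the ratio was 0.131, 0.155 and 0.147 in the mutants and 0.103, 0.103 and 0.129 in the controls. In each case the 3 mutants lay on one side of the 3 controls.

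Of the helicase cofactors, Eif4h had 254 and 423 in the litter 808 mutants and 559 in the litter 810 mutant, against 629.8, 504 and 757 in the controls. The litter 810 embryo lay among the controls. As a log2 fold change among littermates this was -0.92 ± 0.27 (limma adjusted p = 0.0436, and 0.0143 to 0.210 over the alternatives). Eif4b, the other cofactor, had 329.6, 277 and 361 in the mutants and 452, 413 and 447 in the controls, and was not called although the groups did not overlap. limma did not call Eif4a2, Eif4a3, Eif4e2, Eif4e3 or Eif4enif1, while DESeq2 called Eif4a3 and Eif4e2 as higher (adjusted p = 0.00842 and 0.0441). Summed over the 15 Eif4 genes, the mutants had 5627, 5859 and 6029 and the controls 7279, 6923 and 6828. The sum is weighted to genes of high value, such as Eif4g2. Gene by gene, 7 littermate log2 fold changes were negative and 8 positive, with a median of 0.06.

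**Figure D3:**
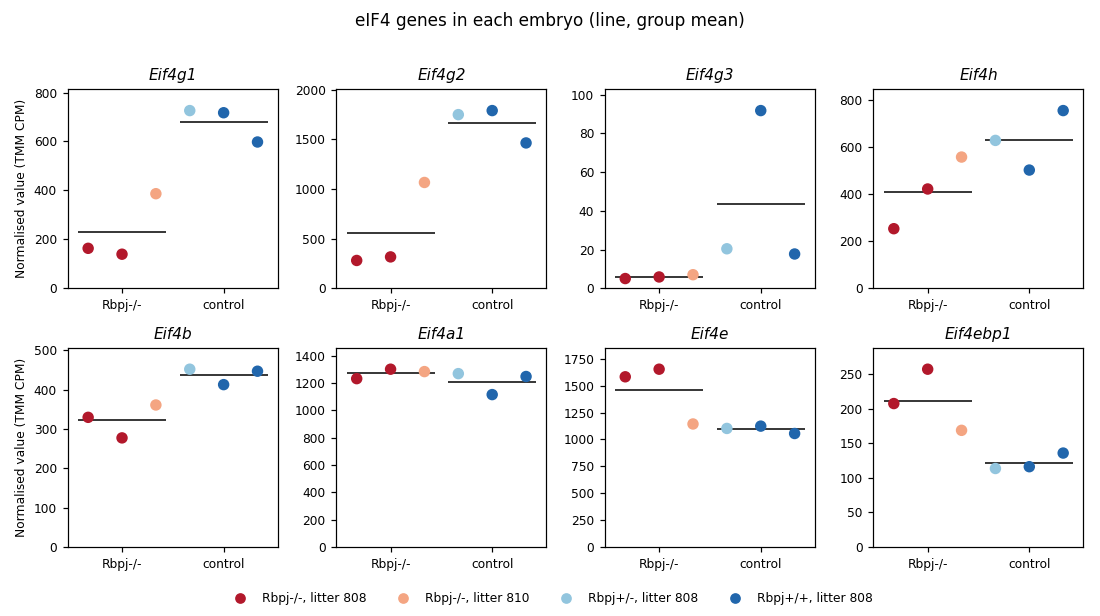
Normalised values (CPM scaled between embryos) of 8 Eif4 genes, with 1 point per embryo coloured by genotype and litter and a line at each group mean, and the 3 Rbpj-/- embryos left of the 3 controls. Eif4g1, Eif4g2, Eif4g3 and Eif4b are lower in all mutants, Eif4a1 overlaps, and Eif4e and Eif4ebp1 are higher in all mutants.

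The bases before the start are shown for the lower genes with an E-box, CACGTG, the site of MYC and related factors. Genes that were higher or not called have an E-box too and are not printed. Eif3a is printed as 1 of 8 genes with the core of the RBPJ site, GTGGGAA or TTCCCAC, none of which limma called among littermates. Any part of these sites in the values was not tested. The sequences are RefSeq windows of GRCm38.p6, from 250 bases before the annotated start, printed on the gene's strand and ended before any annotated exon, with the motif in capitals. The windows lie at chr16:20672477-20672722 (plus strand) for Eif4g1, chr10:81176381-81176630 (plus) for Eef2, chr5:134639491-134639659 (minus) for Eif4h and chr19:60790694-60790943 (minus) for Eif3a.
Eif4g1: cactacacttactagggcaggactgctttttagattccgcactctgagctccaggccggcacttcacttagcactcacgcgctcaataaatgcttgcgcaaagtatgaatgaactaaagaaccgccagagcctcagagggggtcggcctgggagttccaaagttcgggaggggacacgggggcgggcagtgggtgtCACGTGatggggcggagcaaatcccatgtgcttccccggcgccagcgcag
Eef2: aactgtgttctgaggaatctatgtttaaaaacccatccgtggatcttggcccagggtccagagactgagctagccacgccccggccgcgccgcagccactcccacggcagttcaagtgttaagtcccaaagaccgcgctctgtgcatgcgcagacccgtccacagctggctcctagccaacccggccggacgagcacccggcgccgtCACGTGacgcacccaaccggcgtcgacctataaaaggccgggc
Eif4h: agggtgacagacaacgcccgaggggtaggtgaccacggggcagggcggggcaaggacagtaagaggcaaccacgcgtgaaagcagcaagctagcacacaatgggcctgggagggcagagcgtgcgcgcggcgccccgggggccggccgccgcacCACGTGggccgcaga
Eif3a: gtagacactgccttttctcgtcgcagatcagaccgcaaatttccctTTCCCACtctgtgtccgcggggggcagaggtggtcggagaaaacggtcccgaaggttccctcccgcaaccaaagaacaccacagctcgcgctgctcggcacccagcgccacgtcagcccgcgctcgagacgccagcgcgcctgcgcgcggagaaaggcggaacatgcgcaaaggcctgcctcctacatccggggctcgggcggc
The start that RefSeq gives for the Eif4g1 window lies 4414 bases inside the GENCODE gene, and that for Eif4h 81 bases inside. The E-box starts 54 bases before that start in Eif4g1, 43 before the start of Eef2 and 96 before that of Eif4h, and the RBPJ core 204 before that of Eif3a.

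Windows of 300 bases, 250 before the start and 50 after it, were found for 46 of the 59 genes (61 windows), and both strands were searched. The unmatched genes were Eif1a, Eif3h, Eif4ebp1, Eif4g2, Eef1g, Eif2b3, Eif3e, Eif3i, Eif4ebp3, Eif6, Eef1d, Eif4e3 and Eif3j2. The E-box was in 12 of the 46 (26.1%), against 8.09% of 27025 genes with a window. It was in 3 of 7 lower genes, in Eif1b and Eif3k among 7 higher genes, and in 7 of 32 that were not called, Eif4e and Eif4a1 among them. The RBPJ core was in 8 of 46 (17.4%), against 7.25% of the same 27025 genes. These go beyond the 12125 genes of the table, so neither share is that of the genes tested. The core was in 0 of the 7 lower and 0 of the 7 higher genes. It was in 8 of the 32 not called: Eef2k, Eif2ak4, Eif2b4, Eif3a, Eif3f, Eif4enif1, Eif5a2 and Eif5b. Of these, DESeq2 called Eif5a2 as lower and Eif5b as higher among littermates (adjusted p = 0.0396 and 0.0270). After quantile normalisation limma called Eif3a. All mutants were below all controls for Eef2k and Eif3a and above for Eif2b4, and the groups overlapped for the other genes with the core. Of all genes tested, 12.8% had all mutants below all controls and 8.91% above. Eef2k rested on 0, 7 and 27 reads in the mutants. A match of letters is a description and not a bound site.

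Within eIF3, subunit genes were called in both directions. By limma, 2 of 14 genes were lower among littermates (Eif3b and Eif3c), against 11.3% of all genes. Another 5 were higher (Eif3g, Eif3h, Eif3i, Eif3k and Eif3m), against 5.85%, and the group's median log2 fold change was 0.65. Eif3b (chr5:140419328-140443360, plus strand) had 148 and 264 in the litter 808 mutants and 551 in that of litter 810. The controls had 521, 579 and 598. The litter 810 embryo lay within the controls, and the other mutants were far below. The log2 fold change among littermates was -1.51 ± 0.26 (limma adjusted p = 0.00645).

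Eif3c differed in that the 3 mutants were alike, at 392, 375 and 409.9, against 608, 612 and 642 in the controls. Eif3a, the largest subunit, had 1101 and 1087 in the litter 808 mutants and 660.3 in that of litter 810, against 1303, 1534 and 1265 in the controls. All mutants were below all controls, and the litter 810 embryo was the lowest of the 6. Set against its control littermates, the log2 fold change was -0.32 ± 0.18 (limma adjusted p = 0.268), and over all 6 embryos it was -0.56 ± 0.28 (adjusted p = 0.338).

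Among the higher genes, Eif3h had 422 and 403 in the litter 808 mutants and 281 in that of litter 810, against 217, 206 and 203 in the controls. The groups did not overlap, and the controls were close to each other. Its littermate log2 fold change was 0.98 ± 0.20 (limma adjusted p = 0.0128, and 6.42e-07 to 0.486 over the alternatives). Eif3m, at 511, 452 and 266 in the mutants against 229, 244 and 254 in the controls, had 0.99 ± 0.20 (limma adjusted p = 0.0127, and 1.98e-06 to 0.0944 over the alternatives), and overlaps Ccdc73 on the other strand.

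Eif3g, whose product binds RNA and takes part in scanning and in restart after termination, had 817 and 638 in the litter 808 mutants and 323 in the litter 810 mutant, against 437, 329.8 and 304 in the controls. Only the litter 808 mutants were above the controls. The littermate log2 fold change was 1.03 ± 0.23 (limma adjusted p = 0.0171). It was 0.21 (adjusted p = 0.565) with the trend with longest transcript removed, and the call also ended without the shallowest mutant or either wildtype embryo. Eif3i, which sits with eIF3b and eIF3g in a module of the complex, had 636, 528 and 285 in the mutants against 352, 299 and 265 in the controls, and Eif3k had 505, 304 and 171 in the mutants against 194, 166 and 160.3 in the controls. The ratio of Eif3b to Eif3i was 0.233 and 0.499 in the litter 808 mutants and 1.93 in the litter 810 mutant, against 1.48, 1.94 and 2.26 in the controls. The litter 808 mutants thus had the only ratios below 1. limma did not call Eif3d, Eif3e, Eif3f, Eif3j1, Eif3j2 or Eif3l, while DESeq2 called Eif3e, Eif3j1 and Eif3j2 as higher (adjusted p = 0.00259, 0.0461 and 0.0173). Summed over the 14 Eif3 genes, the mutants had 6379, 6240.3 and 4383 and the controls 5461, 5508 and 5117, so the litter 808 mutants were the highest and the litter 810 mutant the lowest.

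The genes of the eIF2 trimer were called in both directions. Eif2s1, the gene of the alpha subunit that stress kinases phosphorylate, had 547 and 734 in the litter 808 mutants and 407 in the litter 810 mutant, against 352, 365 and 426 in the controls. Only the litter 808 mutants stood apart. Among littermates the log2 fold change was 0.74 ± 0.21 (limma adjusted p = 0.0429, and 0.00144 to 0.149 over the alternatives). Eif2s2, the gene of the beta subunit, had 2578, 2496 and 1719.9 in the mutants, against 1627, 1595 and 1366 in the controls. All mutants were above all controls, and the littermate log2 fold change was 0.73 ± 0.18 (limma adjusted p = 0.0233, and 1.36e-05 to 0.422 over the alternatives).

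Eif2s3x (chrX:94188707-94212862, minus strand), the X-linked gene of the gamma subunit that binds GTP and tRNA, had 140.1 and 180.4 in the litter 808 mutants and 293 in the litter 810 mutant, against 342, 388 and 429 in the controls. All mutants were below all controls. This gave a littermate log2 fold change of -1.27 ± 0.22 (limma adjusted p = 0.00686, and 5.52e-06 to 0.0482 over the alternatives), and over all 6 embryos it was -0.98 ± 0.31 (adjusted p = 0.202). The ratio of Eif2s3x to Eif2s2 was 0.0543, 0.0723 and 0.171 in the mutants and 0.210, 0.243 and 0.314 in the controls. Its Y-linked copy Eif2s3y was not analysed here.

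Transcripts that differ between the sexes varied among the embryos. Xist, the RNA that coats the inactive X, had 2.18, 124 and 235 in the mutants and 270.4, 414 and 164 in the controls, and 2 of 6 listed Y-linked genes were in the table, with summed values of 49.4, 34.9 and 10.4 in the mutants and 35.4, 19.2 and 23.9 in the controls. The other X-linked member, Eif1ax, had 157, 365 and 207 in the mutants and 204, 195 and 162 in the controls, and was not called. The part of embryo sex in these values was not tested.

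Among the kinases that phosphorylate eIF2 alpha, Eif2ak1, the gene of the haem-regulated kinase HRI, had 47.2 and 35.2 in the litter 808 mutants and 97.1 in the litter 810 mutant, against 103, 99.9 and 136 in the controls. All mutants were below all controls, the litter 810 embryo by little. As a log2 fold change among littermates this was -1.44 ± 0.30 (limma adjusted p = 0.0133, and 0.000495 to 0.0638 over the alternatives). The summed blood genes were at 209.8, 41.5 and 7305 in the mutants and 1109.8, 5.39 and 5447 in the controls, and their part in the Eif2ak1 values was not tested. The exons of Eif2ak1 overlap Aimp2 and Ankrd61 on the other strand. The kinase genes Eif2ak3 (PERK) and Eif2ak4 (GCN2) were at 0 in 1 litter 808 mutant, and at 29.6 and 18.4 in the litter 810 mutant, the highest of the 6 embryos for both.

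Of the 5 subunit genes of eIF2B, the exchange factor that reloads eIF2 with GTP, limma called none among littermates, while DESeq2 called Eif2b3 and Eif2b2 as higher (adjusted p = 0.00629 and 0.0307). Eif2b5, its catalytic subunit, had 115, 167 and 180.05 in the mutants against 184, 223 and 274 in the controls, with no overlap. Eif2b4 lay the other way, at 209, 208 and 219 in the mutants against 178, 124 and 179 in the controls. Eif2a and Eif2d, whose products deliver tRNA outside the main pathway, were not called. Summed over the 13 Eif2 genes, the mutants had 4589.6, 4962 and 3694 and the controls 3544, 3559 and 3616.

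The 5 genes of the Eif1 group, whose best known products eIF1 and eIF1A govern start codon choice, all had positive littermate log2 fold changes, with a median of 0.48. limma called only Eif1b, edgeR none, and DESeq2 also Eif1 and Eif1ad (adjusted p = 0.0134 and 0.00806). Of all genes, limma called 5.85% as higher, edgeR 4.75% and DESeq2 10.5%. Eif1b had 96.2 and 93.2 in the litter 808 mutants and 48.9 in the litter 810 mutant, against 54.6, 41.7 and 37.8 in the controls. The litter 810 embryo was within the controls, and the littermate log2 fold change was 1.08 ± 0.31 (limma adjusted p = 0.0427, and 0.00462 to 0.686 over the alternatives). It overlaps an exon of D830035M03Rik on the other strand, which this library type cannot separate.

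Eif1, its close homologue, had 1139, 1023 and 778 in the mutants and 705, 769 and 849 in the controls, and a log2 fold change of 0.48 ± 0.19 (limma adjusted p = 0.106). Eif1a, at 411, 543 and 357 in the mutants and 378, 309 and 400.4 in the controls, had 0.39 ± 0.22 (adjusted p = 0.258). Eif1ad, at 210.15, 181 and 70.1 in the mutants and 114, 96.0 and 128 in the controls, had 0.80 ± 0.25 (adjusted p = 0.0570). For Eif1ad the litter 810 mutant was the lowest embryo while the litter 808 mutants were the highest.

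In the Eif5 and Eif6 group limma called only Eif6 and edgeR called none, while DESeq2 called all 5, Eif5a2 as lower and the others as higher. Of all genes, limma called 5.85% as higher, and DESeq2 called 14.2% as lower and 10.5% as higher. The product of Eif6 keeps the large ribosomal subunit from joining too early, and the gene had 1395 and 941 in the litter 808 mutants and 515 in that of litter 810, against 718, 598 and 729.7 in the controls. The mutants lay on both sides of the controls. The log2 fold change among littermates was 0.75 ± 0.22 (limma adjusted p = 0.0456, and 0.00285 to 0.760 over the alternatives), and over all 6 embryos it was 0.37 ± 0.35 (adjusted p = 0.617). Gm16098 overlaps it on the other strand.

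Eif5b, the gene of the joining GTPase, had the same pattern, with 488 and 486 in the litter 808 mutants and 148 in the litter 810 mutant, against 395, 308 and 335 in the controls. Its littermate log2 fold change was 0.50 ± 0.21 (limma adjusted p = 0.128). Eif5, which activates the GTPase of eIF2, had 2732, 2537 and 1517 in the mutants and 1939, 1709.9 and 2238 in the controls (log2 fold change 0.43 ± 0.19, limma adjusted p = 0.146). Eif5a, the hypusine-bearing factor, had 4406, 3525 and 2848 in the mutants and 3149.5, 2602 and 3146 in the controls (0.42 ± 0.19, limma adjusted p = 0.168). For Eif5 and Eif5a the litter 808 mutants were the highest 2 of the 6 embryos. The related Eif5a2 rested on 1 and 0 reads in the litter 808 mutants, and had 18.9 in the litter 810 mutant against 8.45, 1.89 and 2.41 in the controls, so no fold is given.

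The Eef group holds, beside genes of elongation factors, the kinase gene Eef2k and Eef1e1. Of its 7 genes, limma called 1 as lower (Eef2) and 1 as higher (Eef1e1) among littermates, against 11.3% and 5.85% of all genes. DESeq2 called 1 and 4, against 14.2% and 10.5%. Eef2 (chr10:81176631-81182498, plus strand), the gene of the translocase, had 802 and 617 in the litter 808 mutants and 1455 in the litter 810 mutant, against 1443, 1256 and 1734 in the controls. The litter 810 embryo was within the controls. Set against its control littermates, the log2 fold change was -1.06 ± 0.21 (limma adjusted p = 0.0122, and 0.000236 to 0.0647 over the alternatives). Eef2k, the kinase that inhibits eEF2, was at 0, 1.72 and 2.54 in the mutants and 3.30, 2.97 and 7.17 in the controls.

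Eef1a1, the gene of the abundant tRNA carrier, had 1913, 1498 and 1780.2 in the mutants and 1703, 1598 and 1611 in the controls. Its groups overlapped, and the littermate log2 fold change was 0.05 ± 0.19 (limma adjusted p = 0.888). The ratio of Eef2 to Eef1a1 was 0.419 and 0.412 in the litter 808 mutants and 0.817 in the litter 810 mutant, against 0.847, 0.786 and 1.08 in the controls.

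Eef1e1, which encodes a scaffold protein of the aminoacyl-tRNA synthetase complex, had 329, 286 and 219 in the mutants, against 126, 160.2 and 129.8 in the controls. All mutants were above all controls. The littermate log2 fold change was 1.15 ± 0.23 (limma adjusted p = 0.0120), and over all 6 embryos it was 0.98 ± 0.28 (limma adjusted p = 0.186, and 0.0219 by DESeq2). Over the alternatives to the latter fit the adjusted p ran from 0.0117, reached by leaving out the litter 810 mutant, to 0.530. Of the eEF1B exchange factor, Eef1g had 1162, 1085 and 973 in the mutants and 799.7, 696 and 795 in the controls (0.56 ± 0.18, limma adjusted p = 0.0631). Eef1d had 742, 456 and 303 in the mutants and 379, 257 and 347 in the controls (0.85 ± 0.27, limma adjusted p = 0.0575). All 3 mutants were above the controls for Eef1g, while for Eef1d the litter 810 embryo was among them. DESeq2 called Eef1g, Eef1d and Eef1b2 as higher (adjusted p = 0.00227, 0.00763 and 0.0480), and limma called none of them.

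Transcript length went with the fold change. The 8 lower genes had longest annotated transcripts of 2726 to 7995 bases (median 3515), and the 11 higher genes of 1035 to 4102 bases (median 1964). Across the 59 genes, which come from the same libraries and are not independent replicates, Spearman's rho between length and littermate log2 fold change was -0.58, and over 12010 genes it was -0.44. It was -0.62 and -0.49 for the single litter 808 mutants and -0.35 for the litter 810 mutant. Taking each gene's median annotated transcript in its place, rho was -0.12 over the 59 genes and -0.27 over all genes.

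With the trend with longest transcript removed from each embryo, 6 genes were lower and 8 higher among littermates, against 6.65% and 2.90% of all genes. Of the 19 genes called before, 9 were called again: Eef2, Eif2s3x, Eif3b, Eif4g1, Eif4g2 and Eif4h as lower, and Eef1e1, Eif2s1 and Eif2s2 as higher. Eif4g1 then had a log2 fold change of -1.57 (limma adjusted p = 0.00320) and Eif4g2 of -1.83 (0.00156). None of the 5 higher Eif3 genes was called, as for Eif3h at 0.24 (adjusted p = 0.486), nor were Eif1b, Eif2ak1, Eif3c, Eif4ebp1 and Eif6. Eif4e reached 1.10 (limma adjusted p = 0.00538) and was called as higher, with Eif2b3, Eif3e, Eif5 and Eif5b. With the trend with median transcript removed in its place, 9 genes were lower and 10 higher, against 9.25% and 3.47% of all genes. Of the 19 called before, 15 were then called again, all 5 higher Eif3 genes, Eif2ak1 and Eif3c among them, and Eif1b, Eif4ebp1, Eif4h and Eif6 were not. The length of the transcripts and the depth of the 2 litter 808 mutants, the shallowest libraries, moved with these calls, and their part was not tested further.

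**Figure D4:**
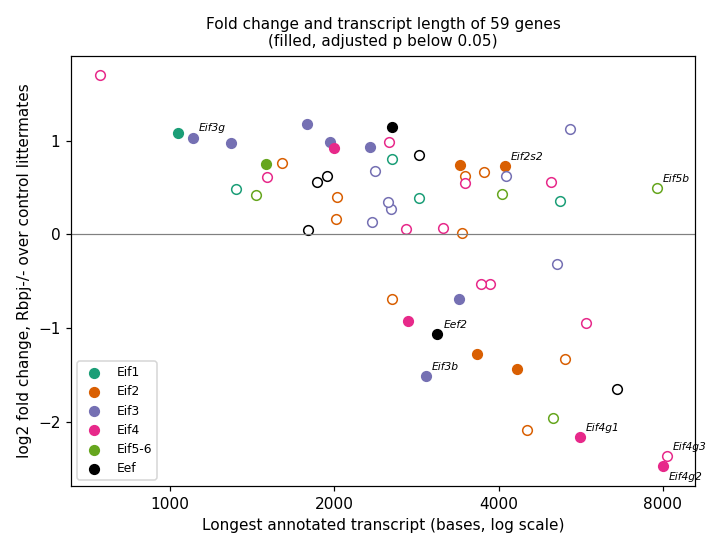
The littermate log2 fold change (Rbpj-/- over control) is plotted against the longest annotated transcript of each of the 59 genes (bases, log scale), coloured by factor group and filled where the adjusted p was below 0.05. The lower filled points lie at 2726 bases or more, and the higher ones at 4102 bases or less.

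Genes that act on these factors were also counted, from lists chosen with earlier results known. Among the 12 measured genes of the mTORC1 and MNK kinases, which set 4E-BP and eIF4E phosphorylation, limma called 4 as lower and 0 as higher among littermates, against 11.3% and 5.85% of all genes, and their median log2 fold change was -1.002. DESeq2 called 4 and 1, against 14.2% and 10.5%. With the trend with longest transcript removed limma called 2 and 1, against 6.65% and 2.90%. Tsc2, an inhibitor of mTORC1, had 8.35, 5.90 and 73.6 in the mutants against 52.0, 74.2 and 82.5 in the controls, and Rptor, a subunit of mTORC1, had 9.07, 7.13 and 5.84 in the mutants against 28.4, 32.2 and 35.6 in the controls. The kinase gene Mknk2 had 7.26, 8.60 and 29.9 in the mutants against 47.6, 46.0 and 33.4 in the controls. The other lower gene was Mtor. All 3 genes with values given were below every control in the litter 808 mutants, and Rptor and Mknk2 in the litter 810 mutant too. They were printed for the smallest littermate p, so the place of the litter 808 mutants follows from that choice. Of all genes, 29.6% had the litter 810 mutant below every control.

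Of 15 measured partners in scanning and recycling, limma called 4 as lower and 2 as higher among littermates, against 11.3% and 5.85% of all genes. It called 3 and 1 with the trend with longest transcript removed, against 6.65% and 2.90%. Larp1, which binds mRNAs with a pyrimidine tract at the cap, had 227, 187 and 452 in the mutants against 661, 611 and 647 in the controls. Abce1, the ribosome recycling ATPase, had 95.8, 137 and 252 in the mutants against 267, 339.6 and 337 in the controls. Denr, which helps reinitiation, had 401, 316 and 176 in the mutants against 113, 141 and 122 in the controls. The mutants did not overlap the controls for any of these 3 genes. Of 9 member genes with classical pyrimidine tract mRNAs, limma called Eef2 as lower and Eif3h as higher, again against 11.3% and 5.85%. DESeq2 called 1 and 5 of the 9, against 14.2% and 10.5%, and their median littermate log2 fold change was 0.56.

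In the other lists, 1 of 5 release and rescue genes (Gspt1) and 1 of 8 genes of the eIF2 alpha stress arm (Ppp1r15b) were lower by limma and none was higher, and neither was called with the trend with longest transcript removed. limma called none of the 9 diphthamide and hypusine enzymes, 3 selenocysteine factors or 9 mitochondrial translation factors, while at an unadjusted p below 0.05 limma had 1 lower and 3 higher, 0 and 0, and 2 lower and 1 higher in these lists, and DESeq2 called 0 and 3, 0 and 0, and 1 and 1. Over all 6 embryos limma called 0 genes of any list.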

How the data were processed

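RNA of 6 single morulae was sequenced, 1 library per embryo. The cDNA kit (SMART-Seq Ultra Low Input) does not keep strand. The deposited table holds a signal per gene: the authors quantified reads on GRCm38 transcripts with RSEM, and turned the gene counts into TMM-scaled CPM in edgeR. The processing notes of the submitters name CASAVA 1.8.2, RSEM 1.2.3 and cutadapt 1.3, and the study's methods name another RSEM release. Their gene filter was not given in the sources used here. Of 12125 genes, 113 had no name.

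In every embryo, 100% of values were within 0.01 of a whole multiple of what 1 read is worth, which gave the depths. Limits of 3 reads cover counting error only. The test was limma 3.58.1 (R 4.3.3) on log2(value + 1), two-sided, with empirical Bayes moderation and a trend of variance with level. It ran over 12099 genes that exceeded a value of 1 in at least 3 embryos, with Benjamini-Hochberg adjustment and a threshold of 0.05. A fold change on this scale understates that of low genes. Genotype was the only term over all 6 embryos, and litter was added for the comparison among littermates. Both comparisons share the controls and the litter 808 mutants. Single embryos are the replicates, and p-values among littermates rest on 2 mutants and 3 controls of 1 litter. edgeR 4.0.16 (quasi-likelihood) and DESeq2 1.42.0 were run on the recovered reads as alternatives.

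Further alternatives changed the pseudocount (0.1 or 5), the filter (none, or a mean of at least 10) and the scaling (median of ratios, or quantile normalisation), or used array weights, removal of a loess trend (span 0.5) with longest transcript, and leaving out each embryo. The trend with median transcript was added after the data were seen. Coordinates and transcript lengths came from GENCODE release M21 of GRCm38, which held 12034 of the genes and all 59 members. Only the limma, edgeR and DESeq2 fits, with and without the litter term, were run on simulated data. That simulation held no effect of litter or transcript length, and its outcome is not given here.

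Members and lists were chosen with earlier results of these data known. Fold change, error and adjusted p are given for Eef1a1, Eef2, Eif2s1, Eif3a, Eif4a1, Eif4e, Eif4g1 and Eif5a, and for up to 4 genes per factor group with the smallest littermate p. Eif4g3 was added after its values were seen. Each list has its counts and up to 3 genes with the smallest littermate p. Near-identical genes such as Eif1 and Eif1b, Eif1a and Eif1ax, or Eif3j1 and Eif3j2 may share reads, as may genes overlapping on opposite strands, which 15 of the 59 do.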

Additional observations from a re-analysis of the deposited data

How the results depend on the processing

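Over all 6 embryos, limma called 0 lower and 0 higher genes among the 59, DESeq2 called 3 and 2, and array weights 8 and 5. Litter as a covariate gave 8 and 11, but this fit is the littermate comparison itself. The litter 810 mutant takes no part in its genotype term, so it is no separate result over all 6 embryos. Leaving out 1 embryo gave 0 to 9 lower and 0 to 11 higher genes, with the highest counts of 9 and 11 without the litter 810 mutant and 0 without any other embryo. Among littermates, where 8 were lower and 11 higher, a mean of at least 10 gave 18 higher, median of ratios scaling 18 and DESeq2 27, and leaving out 1 embryo gave 4 to 9 lower and 0 to 11 higher. Lower and higher counts were 4 and 1 without the heterozygote, 5 and 1 without the first wildtype embryo and 4 and 0 without the second, and 6 higher without the shallowest mutant. Where 1 litter 808 mutant was left, it was assumed to vary like the controls. Single gene values were counted only for the 29 genes chosen by rule for fold change, error and adjusted p. The other members, Eif4g3 among them, are not in these counts. Among littermates, 366 such values kept their direction and their side of the threshold. Another 63 values of 12 genes lost the call, 23 of 10 genes gained it and 11 of 6 genes changed sign. Over all 6 embryos the numbers were 451 kept, 0 lost, 47 gained and 22 with another sign. These include the fit with litter as a covariate. No gene called among littermates changed sign under any of the 16 alternatives. After quantile normalisation the median over all genes was 0.10 on the log2 scale among littermates, against -0.16 as deposited, and 0.0675, against -0.11, over all 6 embryos.

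Among the 29 genes chosen by rule, signs changed as follows, and the cause was not tested. Other members changed sign too and are not listed. Eif4a3, for one, went from 0.61 to -0.025 among littermates with the length trend removed. Over all 6 embryos, quantile normalisation gave -0.26 for Eef1a1, -0.22 for Eif4a1, -0.18 for Eif5 and -0.10 for Eif5a. Removal of the length trend gave -0.32 for Eef1a1, -0.21 for Eif1, -0.24 for Eif5a, 0.47 for Eif5b and -0.11 for Eif6, and with the median transcript -0.061 for Eef1a1, -0.042 for Eif4a1 and -0.046 for Eif5. Array weights gave -0.031 for Eef1a1 and 0.27 for Eif5b. edgeR gave 0.62 for Eif5a2 and 0.11 for Eif5b, DESeq2 0.18 for Eif5b and, with no adjusted p and so outside the 22, 0.63 for Eif5a2, and litter as a covariate 0.50 for Eif5b. Leaving out 1 embryo gave -0.0031 to 0.17 for Eef1a1, -1.96 to 0.20 for Eif5a2 and -0.36 to 0.50 for Eif5b. Among littermates, quantile normalisation gave -0.44 for Eef1a1, -0.37 for Eif4a1, -0.086 for Eif5 and -0.17 for Eif5a. Removal of the length trend gave -0.45 for Eef1a1, -0.25 for Eif1, 0.23 for Eif3a and -0.26 for Eif5a, and with the median transcript -0.12 for Eef1a1 and -0.078 for Eif4a1. Leaving out 1 embryo gave -0.13 to 0.22 for Eef1a1. No paired analysis was possible because the embryo numbers name embryos within a litter and pair no mutant with a control. The precision of the litter 808 mutants, with the fewest reads, limits the low genes, such as Eif5a2 and Eef2k.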
